A study of Mus musculus with 2 samples.

Results

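The 40 genes described here act in G2 and mitosis, the last stages of the cell division cycle, and were taken as a list of names, drawn up with earlier results of these data known; all 40 were found among the 31053 genes of the count table. They were followed in single LSK cells (Lineage-negative, Sca-1-positive, c-Kit-positive bone marrow cells, which hold the blood stem cells and the earliest progenitors) from C57BL/6JRj mice, a wild-type strain with no transgene. Cells of 4 young mice (3 to 5 months) and of 4 old mice (22 to 28 months) gave 1 CITE-Seq library per age, a method that counts transcripts and antibody-bound DNA tags in the same cell. The cell barcodes end in 1 or 2, no label pairs either suffix with an age, and the mice of an age cannot be told apart, so each suffix is treated as 1 library of unknown age and no young cell is compared with an old one.

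Before a cell divides, CDK1 bound to cyclin A and then cyclin B drives it into mitosis, the Aurora kinases and PLK1 build the spindle, and the spindle checkpoint delays chromosome separation until every kinetochore is attached. The anaphase-promoting complex, a ubiquitin ligase, then marks cyclin B and other proteins for destruction, and the daughter cells part. Transcripts of these proteins accumulate together in G2 and are lost after division, and long-term stem cells are known to divide rarely, whereas multipotent progenitors divide often.

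The filter of the study (under 10% mitochondrial UMIs and over 1500 genes detected) kept 4068 of 4688 cells, 1524 with suffix 1 and 2544 with suffix 2, at a median of 15024 and 14767 UMIs (unique molecular identifiers, each standing for 1 captured transcript). No barcode was shared by the suffixes. Of these cells, 3986 had tag counts and were split into 4 gates by CD150 (high at or above the 75th percentile of the suffix) and CD48 (low at or under the 25th). The limits were 40 CD150 tags and 224 CD48 tags in suffix 1, but 407 and 42 in suffix 2, so a gate does not hold the same tag counts in both libraries. The CD150-high CD48-low gate, the pattern of these SLAM family proteins used to enrich long-term stem cells and here called the SLAM gate, held 555 cells (172 and 383), and the CD150-low CD48-high gate, which holds multipotent progenitors, held 2527 (912 and 1615). The 2 remaining gates held 454 cells (CD150-low CD48-low) and 450 cells (CD150-high CD48-high). The transcripts of defining markers followed the gates: Slamf1, which encodes CD150, stood at 50.0 UMIs per 1000000 UMIs of the gate (CPM) in the SLAM gate against 1.75 CPM in the CD150-low CD48-high gate, Procr at 206 against 50.3 CPM, and Flt3, a receptor of lymphoid-primed progenitors, at 5.45 against 185 CPM. The sort markers Ly6a (Sca-1) and Kit were present in both, at 471 and 272 CPM and at 135 and 127 CPM. Transcripts of the antibody light chain Igkc, a B lineage gene, stood at 57.2 CPM in the SLAM gate and 3309 CPM in the CD150-low CD48-high gate, where 11 of 2527 cells, 10 of them of suffix 2, held 98.7% of them.

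Summed over the 40 genes, mitotic transcripts were lowest in the SLAM gate, at 464 CPM (95% Poisson interval 448 to 479), and highest in the CD150-low CD48-high gate, at 2906 CPM (2891 to 2921). The CD150-low CD48-low gate stood at 721 CPM (699 to 744) and the CD150-high CD48-high gate at 2133 CPM (2103 to 2163). The level in the SLAM gate was thus 0.160 times that of the CD150-low CD48-high gate (exact binomial interval 0.154 to 0.165), 0.217 times that of the CD150-high CD48-high gate and 0.643 times that of the CD150-low CD48-low gate. Without cells with over 5% immunoglobulin UMIs, the first of these ratios was 0.158. All intervals cover counting error only: each gate was seen in 2 libraries of unknown age, which are not replicates of 1 condition, and no test was made. The gate held 13.9% of the gated cells but 2.08% of the mitotic UMIs, whereas the CD150-low CD48-high gate held 63.4% of the cells and 84.0% of the UMIs.

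The order of the gates was not the same in both libraries. In suffix 1 the SLAM gate stood at 993 CPM (952 to 1035), 1.06 times the CD150-low CD48-low gate at 937 CPM, and the CD150-high CD48-high gate at 3202 CPM was 1.05 times the CD150-low CD48-high gate at 3058 CPM. In suffix 2 the same gates stood at 237 CPM (224 to 251), 532 CPM (505 to 559), 1014 CPM and 2819 CPM, so that each step was a rise. What held in both libraries was that both CD48-low gates lay below both CD48-high gates. In suffix 1 few cells held most mitotic UMIs of both CD48-low gates: after thinning, as below, 6 of 156 cells with 20 or more held 56.9% of them in the SLAM gate, and 7 of 170 held 53.0% in the CD150-low CD48-low gate. In the other cells of these gates the levels were 361 CPM (330 to 395) and 402 CPM (370 to 435), with intervals that overlap, so the order of the CD48-low gates in suffix 1 is not settled. The SLAM gate had 0.325 times the level of the CD150-low CD48-high gate in suffix 1 and 0.0841 times in suffix 2.

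**Figure D1:**
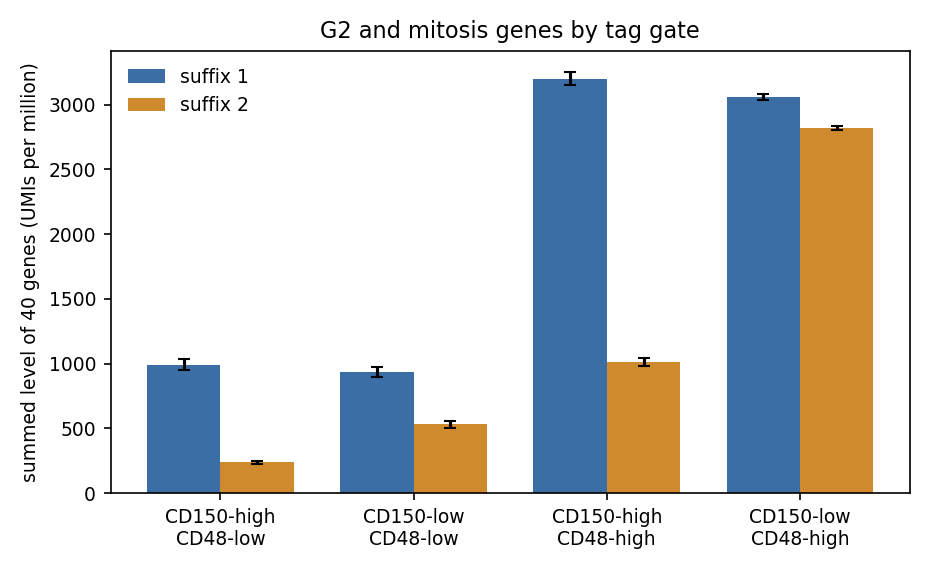
Summed level of the 40 G2 and mitosis genes (CPM, linear axis from 0) in the 4 tag gates, with suffix 1 in blue and suffix 2 in orange; error bars are 95% Poisson intervals. Suffix 1 falls between 937 and 3202 CPM and suffix 2 between 237 and 2819 CPM, with the libraries closest to each other in the CD150-low CD48-high gate.

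To see whether the sum came from few cells or many, each cell was thinned at random to 9000 UMIs and its UMIs of the 40 genes were counted. Cells with fewer UMIs than that (216 of 3986, of which 36 lay in the SLAM gate) were left out. In the SLAM gate 7 of 519 cells held 20 or more mitotic UMIs, a share of 1.35% (Clopper-Pearson interval 0.544 to 2.76), against 564 of 2435 cells or 23.2% (21.5 to 24.9) in the CD150-low CD48-high gate. The share was 2.69% (10 of 372 cells) in the CD150-low CD48-low gate and 15.3% (68 of 444) in the CD150-high CD48-high gate. Counted without thinning, the shares were 1.80% and 31.6% in the 2 outer gates, whose median depths were 13334 and 16343 UMIs. The limit of 20 divides a continuous range, and 148 of the 3770 thinned cells lay between 15 and 25.

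The mitosis-rich cells of the SLAM gate were few enough to describe singly. By suffix they were 6 of 156 cells in suffix 1 (3.85%, 1.42 to 8.18) and 1 of 363 in suffix 2 (0.275%, 0.00697 to 1.53). The cell with the most held 522 UMIs of the 40 genes among 20385 UMIs in all, detected 39 of the 40, and carried 575 CD150 and 183 CD48 tags. The next held 393 UMIs and detected 37 genes, with 252 CD150 and 209 CD48 tags. The 5 others held between 82 and 144 UMIs and detected 26 to 30 of the genes, and the single suffix 2 cell among them carried 1064 CD150 and 42 CD48 tags. Neither Ccnb1 nor Cdc20 was detected in that suffix 2 cell or in the suffix 1 cells with 86 and 129 UMIs of the 40 genes. Mitosis-rich thus names a summed count and not a stage of division. Counted without thinning, as these values are, the 7 cells together held 1465 of the gate's 3486 mitotic UMIs (42.0%; 61.8% in suffix 1 and 6.57% in suffix 2), and none was called a doublet. Their markers were mixed: Hlf and Mecom, transcription factors of stem cells, were detected in 6 of the 7 each and Flt3 in 2, with 1 UMI each, but Slamf1 was detected in 1, Procr in 2, and Cd34, a progenitor marker, in 6, with up to 10 UMIs. CD48 tags in 4 of the 6 suffix 1 cells lay between 183 and 216, near the limit of 224, and the suffix 2 cell lay at its limit of 42.

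**Figure D2:**
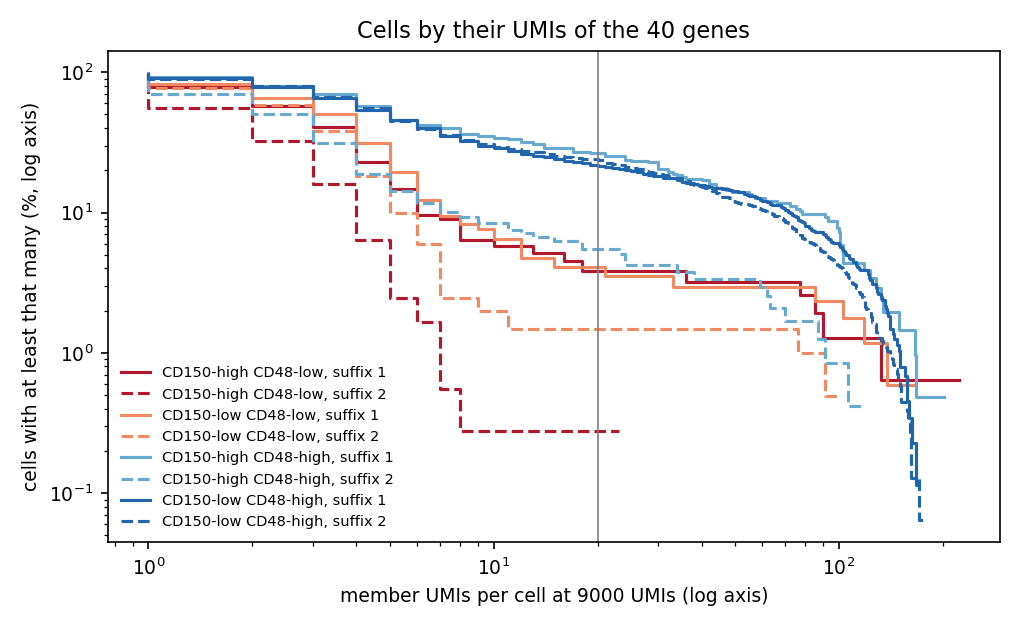
Percent of cells (log axis) with at least a given number of UMIs of the 40 genes (log axis) after thinning to 9000 UMIs, one line per gate (colour) and suffix (solid 1, dashed 2); the grey line marks 20 UMIs. The CD150-low CD48-high lines of both suffixes run together, whereas the dashed SLAM gate line ends at 23 UMIs and the solid one at 223.

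Outside these cells the gates still differed, but less. Among cells with under 20 mitotic UMIs, the summed level was 262 CPM (248 to 277) in the SLAM gate, 361 CPM in the CD150-low CD48-low gate, 408 CPM in the CD150-high CD48-high gate and 525 CPM (514 to 536) in the CD150-low CD48-high gate. The mean was 2.36 mitotic UMIs per cell of 9000 in the first of these and 4.72 in the last. Depth and mitochondrial share moved with the mitotic level: over all gates, mitosis-rich cells had a median of 28663 UMIs against 14349 in the others, and in the SLAM gate their median mitochondrial share was 4.80% against 6.68%. Median mitochondrial shares were 6.67% in the SLAM gate and 5.86% in the CD150-low CD48-high gate. Within cells of like mitochondrial share the SLAM gate stayed below the CD150-low CD48-high gate, at 0.614 times its level under 5% (26 and 299 cells), 0.207 times from 5 to 6%, 0.129 times from 6 to 7% and 0.272 times from 7 to 10%; these bins were chosen after the data were seen. The gap was thus smallest in the few cells with the least mitochondrial RNA, which in the SLAM gate held 4 of the 7 mitosis-rich cells. A stricter filter (over 2500 genes and under 5% mitochondrial UMIs) left 372 cells and 57 in a gate set anew on them. With it the ratio was 0.803 and 1 of the 40 genes was 2-fold lower. The share of all genes past that fold was not counted with this filter.

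Taken one by one, 39 of the 40 genes were at least 2-fold lower in the SLAM gate than in the CD150-low CD48-high gate, where 9.15% of all 12243 genes with at least 50 UMIs in both gates together were. All 40 passed that minimum. The median ratio of the 40 genes was 0.130, against 0.977 over all genes. Against the CD150-high CD48-high gate 38 of 39 members with enough UMIs were 2-fold lower (3.99% of all genes), and against the CD150-low CD48-low gate 7 of 32 were (1.7% of all genes). Those 7, named for these values, were Bub1, Ube2c, Kif11, Kif23, Cdca3, Birc5 and Tpx2, at ratios of 0.308 to 0.497 over both libraries. They were lower by that much in suffix 2, from 0.0547 for Cdca3 to 0.367 for Kif23, on 2 to 57 UMIs in the SLAM gate. In suffix 1 none was, and the ratios ran from 0.510 for Bub1 to 1.10 for Tpx2 and 1.12 for Cdca3. The exception against the CD150-high CD48-high gate was Hjurp, at 0.537 (0.481 to 0.599). Within suffix 1 the count was 35 of 40 (6.48% of all genes) at a median ratio of 0.313, and within suffix 2 it was 40 of 40 (10.1%) at a median of 0.0394.

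The cyclins, CDK1 and CKS2 drive entry into mitosis, and all 5 were more than 4-fold lower in the SLAM gate. Cdk1, the kinase itself, stood at 12.5 CPM there, 22.9 in the CD150-low CD48-low, 92.4 in the CD150-high CD48-high and 120 CPM in the CD150-low CD48-high gate, a ratio of the first to the last of 0.104 (0.0839 to 0.127). Ccna2, cyclin A2, which partners CDK2 and CDK1, had the lowest ratio of the group, with 4.39 against 56.0 CPM and 0.0783 (0.0538 to 0.110). Cks2, a small subunit that binds CDK1, had the highest, with 50.1 against 226 CPM and 0.222 (0.199 to 0.246). The B cyclins Ccnb1 and Ccnb2 lay between, at 0.157 and 0.130. In suffix 1, Cks2 stood at 109 CPM in the SLAM gate and 231 CPM in the CD150-low CD48-high gate, and in suffix 2 at 25.1 and 224 CPM, so the libraries differed in the first gate and hardly in the second.

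The mitotic kinases and the chromosomal passenger complex, which corrects faulty attachments of chromosomes to the spindle, were the group with the lowest summed ratio, 0.0870 (0.0759 to 0.0993). Birc5, which encodes the passenger subunit survivin, fell from 123 CPM in the CD150-low CD48-high gate to 88.7, 16.3 and 7.71 CPM in the CD150-high CD48-high, CD150-low CD48-low and SLAM gates, a ratio of 0.0625 (0.0474 to 0.0809). Aurkb, the kinase of that complex, stood at 3.59 against 57.0 CPM, a ratio of 0.0630 (0.0414 to 0.0918). Cdca8, its borealin subunit, and Plk1, the polo-like kinase, gave 0.103 and 0.114, and Aurka, the Aurora kinase of the spindle poles, 0.158. In suffix 2, Birc5 rested on 12 UMIs, Aurkb on 5 and Plk1 on 3 in the whole SLAM gate of 383 cells.

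The checkpoint kinases Bub1, Bub1b and Ttk, which hold back anaphase, had ratios of 0.105, 0.123 and 0.148. Among the partners of the ubiquitin ligase, Cdc20, which activates the anaphase-promoting complex, stood at 13.3 against 71.0 CPM with a ratio of 0.187 (0.152 to 0.229). Ube2c, the E2 enzyme that starts its ubiquitin chains, stood at 9.18 against 131 CPM with a ratio of 0.0703 (0.0546 to 0.0890). Cdca3, a trigger of mitotic entry, had the lowest ratio of all 40 genes, 0.0594 (0.0394 to 0.0860), with 28 UMIs in the SLAM gate and 3040 in the CD150-low CD48-high gate. Of those 28, 26 were in suffix 1 and 2 in suffix 2.

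Centromere and kinetochore genes held the member with the highest ratio. Hjurp, the chaperone that loads the centromeric histone CENP-A onto chromosomes, stood at 63.2 CPM in the SLAM gate, 89.2 in the CD150-low CD48-low, 118 in the CD150-high CD48-high and 126 CPM in the CD150-low CD48-high gate. Its ratio of 0.502 (0.456 to 0.551) made it the only member not 2-fold lower, though it lies at that limit. Cenpa, the histone that Hjurp loads, gave 26.6 against 107 CPM and a ratio of 0.248 (0.214 to 0.286). Ndc80 and Nuf2, which form the rod that grips microtubules, gave 0.174 and 0.130, the kinesin Cenpe 0.130, and the large kinetochore protein Cenpf 0.104. The 5 kinetochore genes other than Hjurp were thus all more than 2-fold lower, and 4 of them had ratios below 0.2.

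Among the kinesins, motors of the spindle, Kif23, which bundles microtubules between the daughter cells, stood at 15.6 against 61.5 CPM, a ratio of 0.253 (0.208 to 0.304). It was the one kinesin not 4-fold lower. Kif20b, which acts late in division, gave 12.9 against 57.4 CPM and 0.225 (0.182 to 0.275), and Kif11, which pushes the spindle poles apart, 3.46 against 48.6 CPM and 0.0712 (0.0464 to 0.105). Kif2c, which takes microtubule ends apart, and Kif20a, which carries the passenger complex to the midzone, had ratios of 0.133 and 0.126. The 9 genes of spindle and microtubule binding proteins ran from Nusap1 at 0.0853 and Ckap2l at 0.0903 to Ckap2 at 0.217, Gtse1 at 0.224 and Psrc1 at 0.227, with Dlgap5 (0.102), Tpx2 (0.123), Tacc3 (0.133) and Hmmr (0.184) between. Psrc1 itself stood at 4.39 against 19.3 CPM and Nusap1 at 5.59 against 65.4 CPM. Gtse1 had only 9 UMIs in the SLAM gate, and its interval, 0.101 to 0.432, was the widest. Anln, the anillin of the cleavage furrow, gave 0.130.

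The genes of chromosome structure were unlike one another. Mki67, which encodes Ki-67, the coat of mitotic chromosomes and a common marker of cycling cells, stood at 13.2, 20.2, 137 and 186 CPM over the gates in the order used above, a ratio of 0.0706 (0.0573 to 0.0861). Top2a, the topoisomerase that untangles sister chromatids, stood at 26.1, 45.3, 221 and 315 CPM, a ratio of 0.0828 (0.0716 to 0.0954). Smc4, a core subunit of condensin, stood at 78.7, 107, 190 and 231 CPM, a ratio of 0.341 (0.313 to 0.370), second only to Hjurp. The ratio of Smc4 was above that of Mki67 in suffix 1 (0.504 and 0.183) and in suffix 2 (0.268 and 0.0152).

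Asked which mitotic genes persist, a gene was counted as persisting where its level in the SLAM gate was over 0.5 times that of the CD150-low CD48-high gate in both libraries together and in each. None of the 40 met this. Hjurp came nearest, with 0.502 together, 0.665 in suffix 1 and 0.429 in suffix 2. In suffix 1 alone 5 genes were over 0.5: Hjurp, Ckap2 (0.602), Hmmr (0.507), Cenpa (0.506) and Smc4 (0.504); Hmmr is named because of this value. In suffix 2 no gene was over 0.5, and 31 of the 40 were under 0.1. Ckap2 and Hmmr, high in suffix 1, had ratios of 0.0366 and 0.0192 in suffix 2, where they rested on 5 and 4 UMIs.

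**Figure D3:**
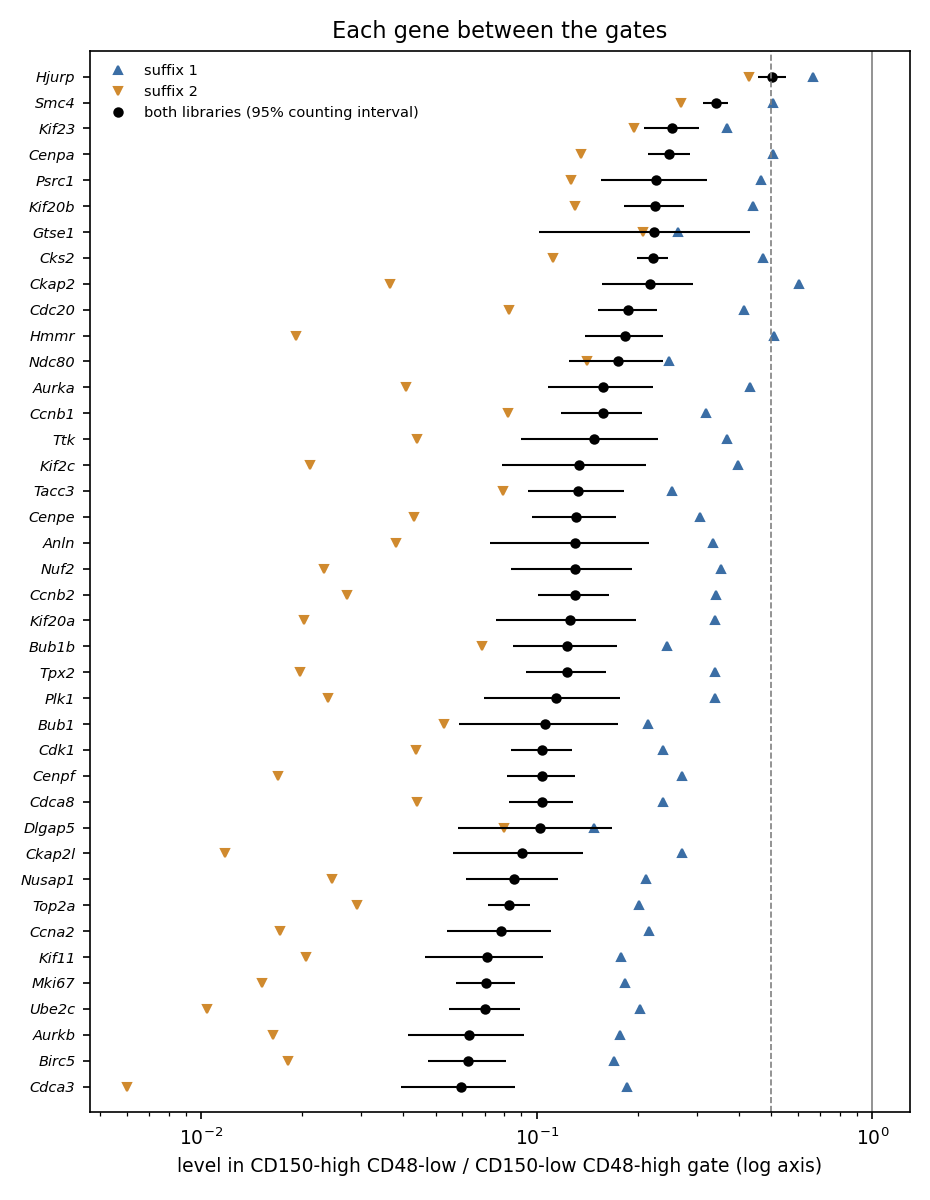
Ratio of the level in the SLAM gate to that in the CD150-low CD48-high gate (log axis) for each of the 40 genes, sorted; black points with 95% counting intervals are both libraries, blue triangles suffix 1 and orange triangles suffix 2, with lines at 0.5 and 1. Ratios run from 0.0594 for Cdca3 to 0.502 for Hjurp, and suffix 2 lies left of suffix 1 for every gene.

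The upstream sequences of the genes at both ends of this order are shown because the members move together and G2 genes are known to share promoter elements: the CHR (cell cycle genes homology region, searched here as TTTGAA or TTTAAA) bound by the DREAM and MuvB complexes, and CCAAT boxes (searched as CCAAT) bound by NF-Y. In the 250 bases before the start, on both strands, 16 of the 34 members in the RefSeq promoter table (build GRCm38.p6) held a CHR match (47.1%, against 25.5% of 27025 genes) and 26 held a CCAAT match (76.5% against 34.5%). At least 2 CCAAT matches were found in 19 members (55.9% against 10.5%), and both elements in 14 (41.2% against 8.995%). A match is a description of letters and was not tied to any binding here. The 3 members with the lowest ratios that the table holds follow, read 5′ to 3′ along the gene with matches in capitals.
Cdca3, chr6:124829926-124830175, plus strand: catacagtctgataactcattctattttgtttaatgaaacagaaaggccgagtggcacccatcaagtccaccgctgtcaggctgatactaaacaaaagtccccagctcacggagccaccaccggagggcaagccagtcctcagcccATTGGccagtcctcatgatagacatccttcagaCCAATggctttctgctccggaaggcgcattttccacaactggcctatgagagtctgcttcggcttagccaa
Birc5, chr11:117848987-117849236, plus strand: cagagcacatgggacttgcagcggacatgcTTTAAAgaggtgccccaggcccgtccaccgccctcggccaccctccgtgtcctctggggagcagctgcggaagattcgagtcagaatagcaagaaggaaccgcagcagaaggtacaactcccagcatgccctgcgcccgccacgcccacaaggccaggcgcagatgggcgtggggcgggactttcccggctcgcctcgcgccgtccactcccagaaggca
Ube2c, chr2:164769679-164769928, plus strand: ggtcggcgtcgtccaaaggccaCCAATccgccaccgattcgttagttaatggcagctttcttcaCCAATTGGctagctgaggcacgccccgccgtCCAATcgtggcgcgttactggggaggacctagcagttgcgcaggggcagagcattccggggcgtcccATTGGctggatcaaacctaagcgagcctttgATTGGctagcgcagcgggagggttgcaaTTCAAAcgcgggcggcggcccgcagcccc

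The 3 members with the highest ratios in the table, in the same form, are Cenpa, Kif23 and Hjurp.
Cenpa, chr5:30666636-30666885, plus strand: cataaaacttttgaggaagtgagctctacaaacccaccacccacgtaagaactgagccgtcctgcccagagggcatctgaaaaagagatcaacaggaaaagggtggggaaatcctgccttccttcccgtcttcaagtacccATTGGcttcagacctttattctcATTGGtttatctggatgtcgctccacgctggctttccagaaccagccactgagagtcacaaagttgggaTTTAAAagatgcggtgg
Kif23, chr9:61946800-61947049, minus strand: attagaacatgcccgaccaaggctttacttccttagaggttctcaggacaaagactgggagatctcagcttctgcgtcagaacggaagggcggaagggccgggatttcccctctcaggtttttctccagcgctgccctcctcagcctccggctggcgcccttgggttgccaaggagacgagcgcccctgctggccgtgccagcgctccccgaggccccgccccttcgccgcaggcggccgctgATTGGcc
Hjurp, chr1:88277580-88277829, minus strand: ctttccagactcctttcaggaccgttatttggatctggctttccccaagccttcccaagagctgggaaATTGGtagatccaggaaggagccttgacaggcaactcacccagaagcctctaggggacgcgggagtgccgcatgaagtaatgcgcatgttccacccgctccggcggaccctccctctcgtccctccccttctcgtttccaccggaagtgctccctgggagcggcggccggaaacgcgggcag

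Ube2c held 1 CHR and 6 CCAAT matches, 1 pair overlapping on opposite strands, Cdca3 held 2 CCAAT matches and Birc5 1 CHR match. Cenpa, with a ratio of 0.248, held 1 CHR and 2 CCAAT matches, whereas Kif23 and Hjurp held 1 CCAAT match each and no CHR match in this window. Top2a (2 CHR and 6 CCAAT matches), Mki67 (2 and 3) and Cdk1 (2 and 3) held several of each, whereas Nusap1, with a ratio of 0.0853, held neither. Genes with and without these letters were thus found at both ends of the order.

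How the transcripts of each gene were spread over the cells of the SLAM gate separated Hjurp and Smc4 from most other members. For each gene, its UMIs were divided by how many UMIs of the other 39 genes their cell held, without thinning. Of 475 Hjurp UMIs in the gate, 42.9% lay in cells with at most 2 UMIs of the other genes and 9.47% in cells with 20 or more. Smc4 was alike, with 44.4% of 592 UMIs in the first kind of cell and 15.03% in the second. Kif23 followed, with 34.2% and 17.1% of 117 UMIs.

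The opposite was seen for Mki67, with 2.02% of 99 UMIs in cells nearly free of the other genes and 93.9% in cells rich in them. Hmmr (94.9% of 59 UMIs), Ccna2 (90.9% of 33) and Birc5 (89.7% of 58) were also held almost wholly by mitosis-rich cells. Cks2 and Cenpa were intermediate, at 40.6% of 377 and 40.5% of 200 UMIs in the rich cells. Over all 40 genes, 28 had most of their UMIs in the rich cells and 13 had over 80% there. Dlgap5 and Gtse1 also had large shares in the poor cells (50.0% and 44.4%), but on 16 and 9 UMIs.

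**Figure D4:**
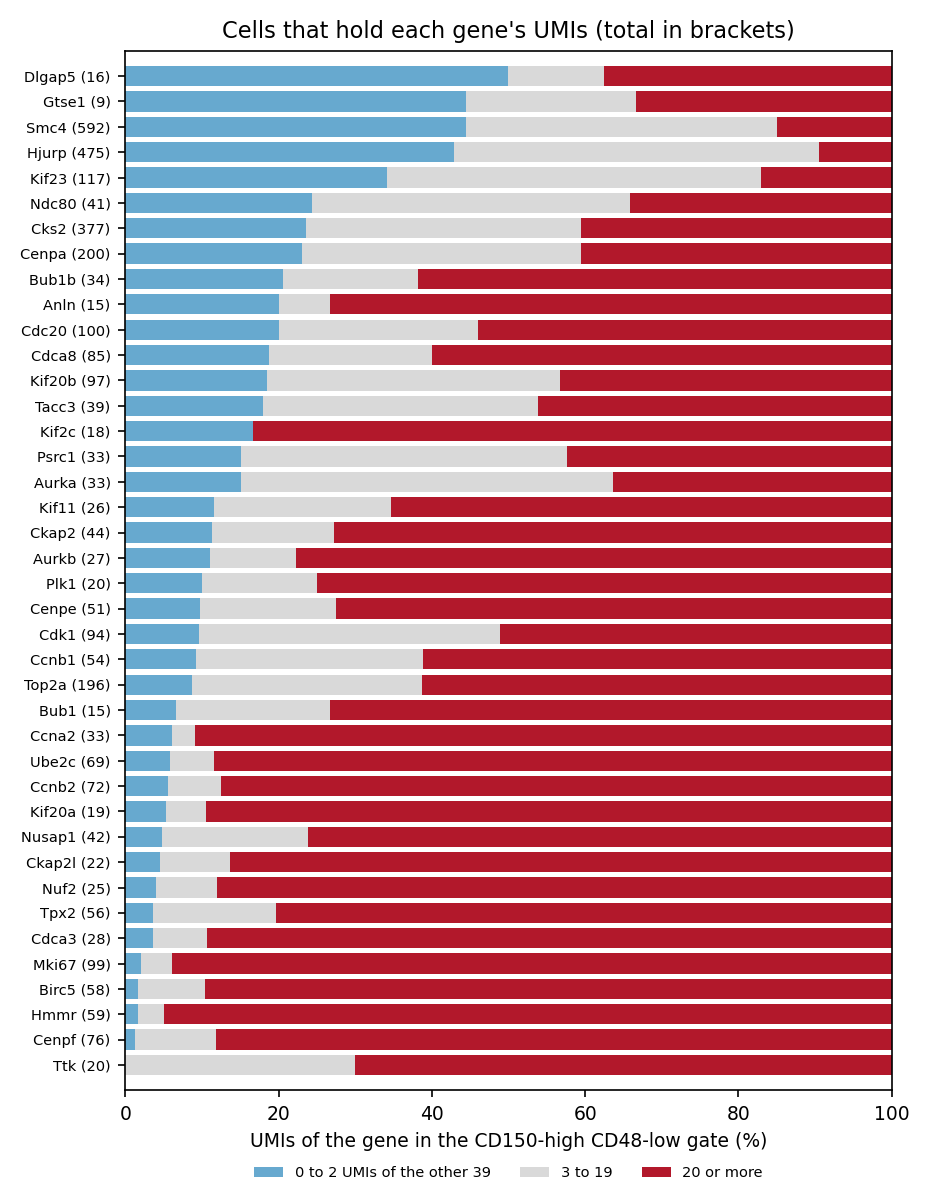
Percent of each gene's UMIs in the SLAM gate (total in brackets) that lay in cells with 0 to 2 (blue), 3 to 19 (grey) or 20 or more (red) UMIs of the other 39 genes. Hjurp and Smc4 have 9.47% and 15.03% in red, and Hmmr and Mki67 94.9% and 93.9%.

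The levels outside mitosis-rich cells were therefore compared between the gates, in cells thinned to 9000 UMIs that held under 20 UMIs of the other 39 genes; this measure was chosen after the data were seen. Cenpa stood at 16.5 CPM in the SLAM gate and 20.1 CPM in the CD150-low CD48-high gate, a ratio of 0.821 (0.632 to 1.06) whose interval holds 1. Smc4 stood at 70.7 and 106 CPM, a ratio of 0.670 (0.594 to 0.754), and Hjurp at 56.0 and 83.7 CPM, a ratio of 0.669 (0.584 to 0.764). These were the genes that were closest between the gates among those with at least 50 such UMIs in the first.

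Kif23 gave 0.509 (0.384 to 0.665), Cks2 0.414 (0.344 to 0.495) and Top2a 0.230 (0.174 to 0.298) on the same measure. Mki67 was at 2.17 against 11.4 CPM, a ratio of 0.190 (0.0895 to 0.356) on 10 UMIs. By suffix, Smc4 had a ratio of 0.911 in suffix 1 and 0.570 in suffix 2, Hjurp 0.775 and 0.629, and Cenpa 0.840 and 0.815. Cenpa, which in the whole gate differed much between libraries (0.506 and 0.136), was thus alike in them outside the rich cells.

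**Figure D5:**
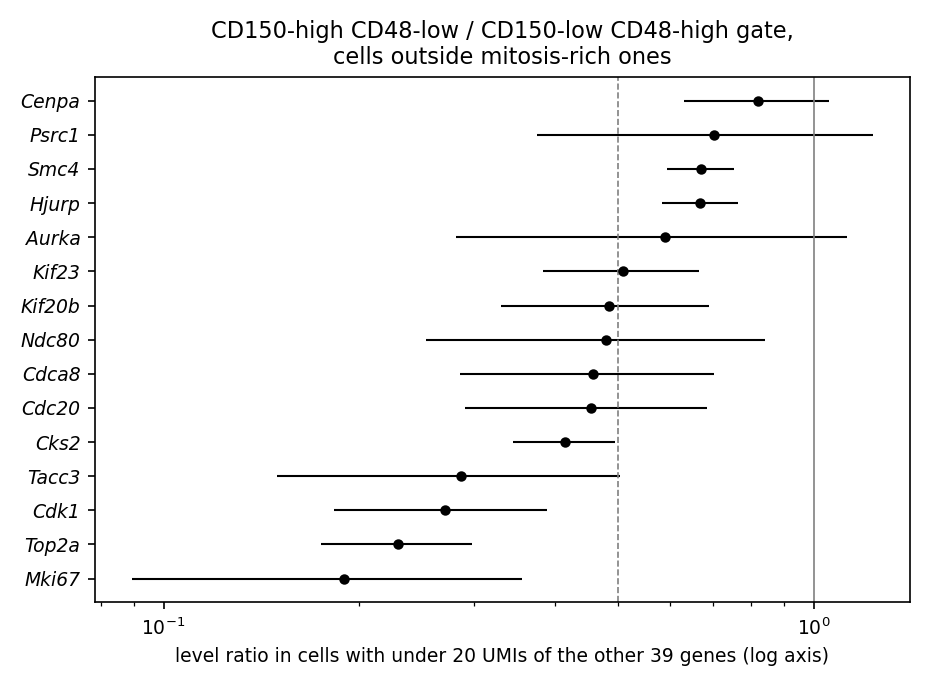
Ratio of the SLAM gate to the CD150-low CD48-high gate (log axis, bars are 95% counting intervals) in cells with under 20 UMIs of the other 39 genes, for the 15 genes with at least 10 UMIs there in the first gate. Cenpa, Smc4 and Hjurp lie at 0.821, 0.670 and 0.669, Psrc1 at 0.703 on 15 UMIs, and Mki67 at 0.190.

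Smc4 and Hjurp made up 27.0% and 21.4% of the mitotic UMIs in cells of the SLAM gate with under 20 of them, but 6.30% and 2.83% in the mitosis-rich cells of the CD150-low CD48-high gate. The same was seen within each gate: Smc4 and Hjurp were at 5.26% and 1.65% in the mitosis-rich cells of the SLAM gate, and at 19.5% and 15.8% in cells of the CD150-low CD48-high gate with under 20. A larger share of Smc4 and Hjurp thus went with few mitotic UMIs in both gates. Mki67 went the other way, from 0.497% in the poor cells of the SLAM gate and 1.79% in those of the CD150-low CD48-high gate to 6.01% and 7.05% in the rich cells. The part of free RNA in these shares was not tested. By share of thinned cells with a UMI, Hjurp was detected in 40.1% and Smc4 in 45.3% of the SLAM gate (53.0% and 56.6% without thinning), and Mki67 in 2.50% (2.88%). In the CD150-low CD48-high gate the thinned shares were 56.7%, 65.5% and 26.2% (74.6%, 77.8% and 31.1% without thinning). The median depths of these gates were 13334 and 16343 UMIs.

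These shares were set beside those of 12 genes used as markers of mature blood cells. Cd79a of B cells was found in 0.578% and 0.575% of thinned cells of these gates and Hbb-bs of red cells in 3.28% and 1.48%. Cd3e of T cells was found in none, with upper Clopper-Pearson limits of 0.708% and 0.151%. S100a8 of neutrophils was found in 1.73% and 2.71%, Itgam, which encodes CD11b, in 5.01% and 13.8%, and Nkg7, a granule gene of killer cells, in 5.78% and 60.6%. Itgam and Nkg7 differed between the gates and so do not serve as a like background in both. Igkc, an antibody light chain, stood at 31.4% and 31.2% (41.4% and 44.6% without thinning), and almost all of the cells with it were of suffix 2. In the SLAM gate Igkc was found in 1 of 156 cells of suffix 1 (0.641%) and in 162 of 363 cells of suffix 2 (44.6%).

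In suffix 1, where Igkc was rare, Hjurp was found in 49.4%, Smc4 in 56.4%, Cenpa in 15.4% and Mki67 in 5.77% of the SLAM gate. The 12 marker genes were found in at most 11.5% (Nkg7). Mki67 was below Nkg7 and below Itgam at 7.05%, but Nkg7 and Itgam do not serve as a like background, so nothing is read from that order. In suffix 2 the shares were 36.1% for Hjurp, 40.5% for Smc4, 12.7% for Cenpa and 1.10% for Mki67, all below Igkc at 44.6%. In the CD150-low CD48-high gate of suffix 2, 10 cells held 98.7% of 152536 Igkc UMIs. Igkc, held by few cells at high counts, is therefore not a like background for the other genes. What part of the shares in the SLAM gate of suffix 2 is free RNA was not tested. The other marker genes were at 4.13% (Itgam) or less there, under Hjurp, Smc4 and Cenpa, and Mki67 was below several of them. In the CD150-low CD48-high gate of suffix 2, Hjurp at 54.4% and Smc4 at 65.8% lay above Igkc at 47.5%. Cenpa and Mki67, at 26.3% each, lay below it, though without thinning a cell of that gate held up to 52 Mki67 UMIs. Nkg7 was at 65.0% and, as it differed between the gates, is not used as a bar. Outside the rich cells, the suffix 2 ratios of Hjurp, Smc4 and Cenpa thus rest on SLAM gate shares below that of Igkc. Cks2, at 20.7%, and Top2a, at 5.23%, were below it too, and the part of free RNA was not tested.

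Between the libraries, the difference lay mainly in the CD150-high gates. The summed level of suffix 2 was 0.239 times that of suffix 1 in the SLAM gate (0.223 to 0.256), 0.317 times in the CD150-high CD48-high gate, 0.568 times in the CD150-low CD48-low gate and 0.922 times in the CD150-low CD48-high gate (0.912 to 0.932). With tag percentiles set over both suffixes together, so that the limits were the same, the first of these was 0.519 and the last 1.11, above 1. Of the 19 members with at least 50 UMIs in the SLAM gate, 18 were 2-fold lower in suffix 2, where 2.4% of all 9435 genes tested were. The exception was Hjurp, at 51.1 CPM in suffix 2 and 91.5 CPM in suffix 1. This count is a description only, since the other 21 members had fewer UMIs and several of the 19 reached the minimum through suffix 1, where they were high, as Hmmr did with 55 and 4 UMIs, almost all in mitosis-rich cells. In the CD150-low CD48-high gate none of 40 was 2-fold lower, with 1.03% of all genes past that fold.

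The difference was smaller without the richest cells, and the makeup of the gate moved with it. Without the 2 cells with the most mitotic UMIs, both of suffix 1, the ratio in the SLAM gate was 0.395. In its cells with under 20 mitotic UMIs the ratio was 0.611 (0.544 to 0.687), against 0.962 in the CD150-low CD48-high gate. In the SLAM gate multipotent progenitor markers (Flt3, Cd34 and Cd48) summed to 216 CPM in suffix 1 and 43.9 CPM in suffix 2, and the 10 stem cell markers to 1492 and 1755 CPM, with the tag limits given above. The part of the gate's makeup in the difference between libraries was not tested, and age and library cannot be told apart.

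Genes of the same process outside the list behaved alike one by one, but less so in their sum. Of 40 other mitotic genes, 38 were at least 2-fold lower in the SLAM gate, at a median ratio of 0.120. They included the transcription factors Foxm1 (0.178; 0.437 in suffix 1 and 0.0610 in suffix 2) and Mybl2 (0.0865; 0.172 and 0.0535), which switch on G2 genes and had 17 and 11 UMIs in the SLAM gate. Summed, the 40 other genes stood at 608 against 1915 CPM, a ratio of 0.318 (0.308 to 0.327). Of these sums, Tubb4b alone gave 340 and 483 CPM. The 2 exceptions, named for their values, were Tubb4b, a beta-tubulin (0.703), and Pttg1, which encodes securin, the guard of sister chromatid cohesion. Pttg1 stood at 43.6 against 28.3 CPM, a ratio of 1.54 (1.36 to 1.74), and was higher in the SLAM gate in suffix 1 (1.48) and in suffix 2 (1.57).

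Of 35 S phase genes, 34 were 2-fold lower, at a median of 0.248, with Chaf1b (0.759) the exception. Of 12 G1 genes 5 were lower and none 2-fold higher: Cdk6 stood at 0.205 (0.319 in suffix 1 and 0.166 in suffix 2), whereas the D cyclins Ccnd1, Ccnd2 and Ccnd3 stood at 1.56, 1.54 and 1.40, and Ccnd1 at 1.06 in suffix 1 and 1.86 in suffix 2. Among 5 CDK inhibitors with enough UMIs, only Cdkn1c, which encodes p57 and restrains stem cell cycling, was past 2-fold, at 88.6 against 11.3 CPM, a ratio of 7.81 (6.96 to 8.76). For genes called lower, these lists, like the members, were read against the 9.15% of all genes that were 2-fold lower. The share of all genes 2-fold higher was not counted, so the higher level of Cdkn1c has no such share beside it.

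Across the 4068 cells, the genes outside the list whose log level per cell went most with the sum of the 40 were Hmgb2 (Pearson r 0.840), Spc24 (0.796), Kif15, Knl1, Pbk, Prc1, Neil3, Kif22 and H2afz (0.734), among 10646 genes detected in at least 5% of cells. The cells share 2 libraries and differ in depth, so these are descriptions. Within the list Cdca8 (0.870), Top2a (0.870) and Mki67 (0.866) went most with the sum of all 40, itself included, and Kif23 (0.582), Hjurp (0.579), Psrc1 (0.542) and Gtse1 (0.414) least. By gate, these genes ran from Spc24 at 0.0742 to H2afz at 0.394 times the CD150-low CD48-high level, and H2afz, a histone variant present in 99.4% of cells, fell the least.

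Reads of 7 members cannot be told from those of a protein-coding gene on the opposite strand unless counting used strand, which the sources used here do not state: Ccna2 with Exosc9, Cdca8 with 9930104L06Rik, Cdc20 with Elovl1, Ube2c with Tnnc2, Kif20a with Cdc23, Nusap1 with Oip5 and Tacc3 with Tmem129. Hjurp, Smc4, Cenpa and Mki67 overlap no protein-coding gene in the GENCODE annotation of GRCm38.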

How the data were processed

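LSK cells of both ages were profiled with Chromium 3′ v3 chemistry. The authors counted UMIs per gene and cell with Cell Ranger 3.1.0 (mm10/GRCm38 per the labels) and normalized the libraries to each other with its aggr step, which can lower the depth of one of them; the deposited counts are whole numbers, unscaled per cell. Tag counts were made with CITE-seq-Count and deposited by the authors as log10 values, a score per cell and tag, here turned back to counts (a count of 0 was ranked lowest).

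Here, cells were filtered as in the study and gated at the 75th and 25th percentiles per suffix. Levels are UMIs per 1000000 UMIs of the summed cells of a gate (CPM). Intervals are 95% exact Poisson, conditional binomial or Clopper-Pearson intervals and cover counting error only; with 1 library per age no test was made. A gene was called lower at a 2-fold difference if the groups held at least 50 of its UMIs together. Cells were thinned to 9000 UMIs with a fixed seed. Doublets were called per suffix with Scrublet in scanpy 1.11.5 (5 of 1524 and 32 of 2544 cells) and kept, since leaving them out is one of the alternatives. Ratios and calls were checked on simulated gate totals with counting error only, so the check does not cover spread between cells. Python 3.11.15, numpy 2.4.6, scipy 1.17.1 and pandas 2.3.3 were used.

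The 40 genes, the other gene lists and the gates were chosen with earlier results of these data known. Genes named with values were the 10 highest and 10 lowest ratios, the 10 with the most UMIs in the SLAM gate (CD150-high CD48-low), and the 10 genes outside the list most correlated with their sum, of which 1 is not reported here; others are given by ratio, or named for a stated value. Alternatives tried were other tag percentiles, cell filters, weightings, UMI minima and fold limits, leaving out doublets or immunoglobulin-rich cells, and each suffix alone. The CLCA3A1 tag was not used here.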

Additional observations from a re-analysis of the deposited data

How the results depend on the processing

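The CD150-high CD48-low gate stayed below the CD150-low CD48-high gate in its summed level under every alternative tried, but the size depended on the cells. Against 0.160, the ratio was 0.290 with both tags split at the median, 0.114 with percentiles over both suffixes together, 0.134 with no cell filter, 0.193 with each cell weighted equally, 0.190 with cells thinned, 0.325 in suffix 1, 0.0841 in suffix 2 and, as an alternative chosen after seeing the data, 0.118 without the 2 cells of the gate with the most mitotic UMIs. With over 2500 genes and under 5% mitochondrial UMIs it was 0.803. That filter keeps 372 cells, sets other tag limits and leaves 57 cells in the gate, of which 23 were in it before and 16 in the CD150-high CD48-high gate. Erythroid-megakaryocyte markers (Gata1, Pf4, Itga2b and Klf1) summed to 566 CPM in the 57 cells and 34.8 CPM in the 23. Those 23 stood at 2464 CPM of the 40 genes and the 293 cells of the CD150-low CD48-high gate that pass it at 3872 CPM, a ratio of 0.636. The number of genes 2-fold lower, 39 in the main analysis, was 1 with the strict filter and 35 to 40 under every other alternative. The share of all genes past that fold was counted only for the main analysis and for each suffix alone, as given above. The number that persisted, 0 in the main analysis, was 15 with the strict filter, 1 with both tags split at the median, 5 in suffix 1 and 0 under the others. The share of cells with at least 20 mitotic UMIs, 1.35%, was 23.1% with the strict filter, 4.51% with the median split, 3.85% in suffix 1 and 0.275% in suffix 2. The ratio of suffix 2 to suffix 1 in the CD150-high CD48-low gate, 0.239, was 0.339 with the median split, 0.340 with the 90th and 10th percentiles, 0.519 with percentiles over both suffixes together, 0.275 with the strict filter, 0.294 with no filter, 0.293 with cells weighted equally, 0.282 thinned and 0.395 without the 2 cells. In the CD150-low CD48-high gate, 0.922 became 0.937, 0.889 and 1.11, above 1, for the same 3 splits, 0.861 with the strict filter, 0.900 with no filter and 0.932 thinned; the cause was not tested. Over 21 named genes and 11 alternatives, 231 ratios, none was above 1, the highest was 0.970, and 29 were over 0.5. No paired analysis was possible because the ages share only replicate number 1 and no suffix is tied to an age. The gates were compared within each suffix, as given above, and 2 such pairs were left without a test. Low counts in suffix 2, often under 10 UMIs a gene in the CD150-high CD48-low gate, limit single-gene ratios there.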
